A study of Mus musculus with 3 samples.

Results

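The data describe 8 genes of the tight junction, the 5 claudins Cldn2, Cldn3, Cldn4, Cldn6 and Cldn7 together with occludin (Ocln), junctional adhesion molecule A (F11r) and zonula occludens 1 (Tjp1), in mouse embryonic stem (ES) cells overexpressing the transcription factor Gata6. The members were all probe sets of the array that the platform annotation assigns to one of these genes alone, which gave 14 probe sets of 34945 assigned to 1 gene, for 8 of 18193 genes. The labels give 1 array at day 0 (the control), 1 at day 1 and 1 at day 2 of Gata6 overexpression, and the series' design text says that the overexpression responds to dex. Whether the day 0 cells carry the construct, and the ES cell line, the dose of dex and the culture conditions, were left unstated in the sources used here. There are no replicates, so no test between days could be made, and each difference is also one between single cultures and arrays. Any effect of dex itself or of time in culture cannot be told apart here from that of Gata6.

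Tight junctions seal the space between neighbouring epithelial cells at the apical end of their contacts. Claudins form the strands that act as barrier or pore, occludin and the junctional adhesion molecules accompany them in the membrane, and zonula occludens proteins tie the strands to actin from the cytoplasm. Gata6 drives formation of primitive endoderm, an extraembryonic epithelium on the inner cell mass of the blastocyst, whose visceral derivative keeps epithelial form while the parietal derivative becomes migratory.

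Values are MAS5 signals, a linear intensity per probe set, scaled to a common trimmed mean. Signals under 54.0, which is the 40th percentile over the 3 arrays and is called the floor here, were raised to it before log2 was taken and have no order among themselves. The 95th percentile of olfactory and vomeronasal receptor probe sets, which ES cells should not express, was 70.2, and readings below it are called background here. Where the dimmer reading is at or below that background, a fold is written as at least N-fold. N is taken after raising readings to the floor of 54.0, so a fold against 70.2 would be smaller. A gene counts as higher or lower from a 2-fold difference on, and is represented by whichever of its probe sets has the highest mean log2 signal. Signals of different probe sets are not compared with each other, since each binds with its own efficiency.

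The 3 arrays had similar medians, between 81.8 and 86.4, and 12289 to 12657 genes above the floor. The labels were checked against marker genes. All 6 primitive endoderm markers (Gata6, Gata4, Sox17, Sox7, Pdgfra and Dab2) were higher on day 1 and on day 2 than on day 0. Of these, Gata6 is itself the overexpressed gene, so its reading is no separate check. Of 8 ES cell markers, 7 were lower on both days. The exception was Dppa5a, which read 40759, 37051 and 36734. As a measure of error, 2 probe sets of the same gene gave log2 ratios that differed with an SD, per probe set, of 0.37 over 47012 pairs of ratios. The same 2 probe sets could enter once for each of the 3 comparisons of days, so these pairs are not independent. By mean signal of the pair, the SD was 0.50 below 200, 0.39 between 200 and 1000, 0.25 between 1000 and 5000, and 0.16 beyond that. This SD covers measurement on these arrays and not the spread between cultures.

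The upstream sequences of the claudins with the widest differences (Cldn6, Cldn7 and Cldn3) and of Cldn4, the immediate protein-coding neighbour of Cldn3 on chromosome 5, are shown because these 4 genes had different time courses. Each is the 250 bases before the transcription start in RefSeq (build GRCm38.p6), written in the direction of transcription. Capitals mark matches, on either strand, to the E-box CAGGTG, a form bound by the repressors of the Snail and Zeb families, or to a GATA motif (AGATAA, the same motif ending in G, that is AGATAG, or either with T as its first letter, that is TGATAA as well as the form TGATAG). The E-box and GATA letters overlap nowhere in these sequences.
Cldn6, chr17:23679115-23679364, plus strand: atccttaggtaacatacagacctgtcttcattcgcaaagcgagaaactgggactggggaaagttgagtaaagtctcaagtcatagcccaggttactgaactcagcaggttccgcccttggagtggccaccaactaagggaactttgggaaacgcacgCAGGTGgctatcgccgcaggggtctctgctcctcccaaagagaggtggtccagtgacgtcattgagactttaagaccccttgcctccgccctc
Cldn7, first start, chr11:69964529-69964778, plus strand: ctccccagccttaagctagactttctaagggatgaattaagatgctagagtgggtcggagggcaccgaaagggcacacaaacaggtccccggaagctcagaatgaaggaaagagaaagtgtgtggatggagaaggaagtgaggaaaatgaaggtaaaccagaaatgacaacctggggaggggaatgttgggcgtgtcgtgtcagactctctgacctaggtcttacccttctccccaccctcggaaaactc
Cldn7, second start, chr11:69965171-69965420, plus strand: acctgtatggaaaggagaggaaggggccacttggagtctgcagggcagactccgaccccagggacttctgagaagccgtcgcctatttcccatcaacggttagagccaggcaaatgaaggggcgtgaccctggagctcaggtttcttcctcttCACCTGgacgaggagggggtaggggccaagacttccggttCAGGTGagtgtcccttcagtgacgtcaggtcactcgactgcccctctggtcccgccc
Cldn3, chr5:134985964-134986213, plus strand: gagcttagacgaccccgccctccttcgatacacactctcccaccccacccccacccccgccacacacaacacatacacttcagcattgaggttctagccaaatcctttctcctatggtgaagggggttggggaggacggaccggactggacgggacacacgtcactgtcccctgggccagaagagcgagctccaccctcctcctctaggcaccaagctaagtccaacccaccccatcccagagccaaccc
Cldn4, chr5:134946935-134947184, minus strand: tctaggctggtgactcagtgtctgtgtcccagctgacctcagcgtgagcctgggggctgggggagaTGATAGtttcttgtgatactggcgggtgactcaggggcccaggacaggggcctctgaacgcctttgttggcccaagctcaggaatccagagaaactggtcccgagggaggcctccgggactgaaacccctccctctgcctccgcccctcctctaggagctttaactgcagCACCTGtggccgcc

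The Cldn6 sequence holds 1 E-box, 93 bases before the start, and no GATA motif. At the second Cldn7 start there are 2 E-boxes, 97 and 57 bases upstream, and at the first start neither motif. Cldn3 has neither, while Cldn4 has an E-box 14 bases and a GATA motif 184 bases before its start. Over all 8 genes, which have 10 listed starts, 5 starts held an E-box and 2 a GATA motif, the latter at Cldn4 and Tjp1. Among 32851 promoters of the same length in the RefSeq table, 17.2% held the E-box and 26.5% a GATA motif. These matches describe letters in a short window and are no evidence of binding.

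Over the 2 days, the tight junction genes divided into 3 kinds of course. Cldn6, Cldn7 and Ocln were brighter on day 2 than on day 0, Cldn3 was dimmer, and Cldn4, F11r and Tjp1 stayed within 2-fold, while Cldn2 was not read above background on any day. On day 1, 2 of 8 genes were higher (Cldn6 and Ocln; 6.00% of the 13602 genes compared were higher) and 1 was lower (Cldn3; 6.58% of all genes). On day 2 against day 0, 3 of 8 were higher, against 11.0% of 13865 genes, and 1 of 8 was lower, against 10.1%. Between day 1 and day 2, where 6 members could be compared, 3 were higher (Cldn6, Cldn7 and Ocln; 5.61% of 13468 genes) and 0 lower (3.67%). The median log2 ratio of the 8 genes was -0.01 on day 1 and 0.12 on day 2, and that of all genes compared was -0.04 and -0.05. At a 3-fold threshold, Ocln was higher (2.54% of genes) and Cldn3 lower (2.12%) on day 1. On day 2 against day 0, Cldn6, Cldn7 and Ocln passed it upward (5.19%) and Cldn3 downward (3.89%), and between day 1 and day 2, Cldn6 and Cldn7 passed it (1.69%) and no member was lower (0.832%). At 1.5-fold, Cldn4 joined Cldn3 among the lower genes on day 1 (15.9%) and on day 2 (21.9%). The higher genes at 1.5-fold were those at 2-fold in each comparison, where 13.3% of genes were higher on day 1, 20.2% on day 2 and 15.0% between them, and again no member was lower between day 1 and day 2 (12.1%). Because both comparisons with day 0 use the same day 0 array, an error in it enters both.

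**Figure D1:**
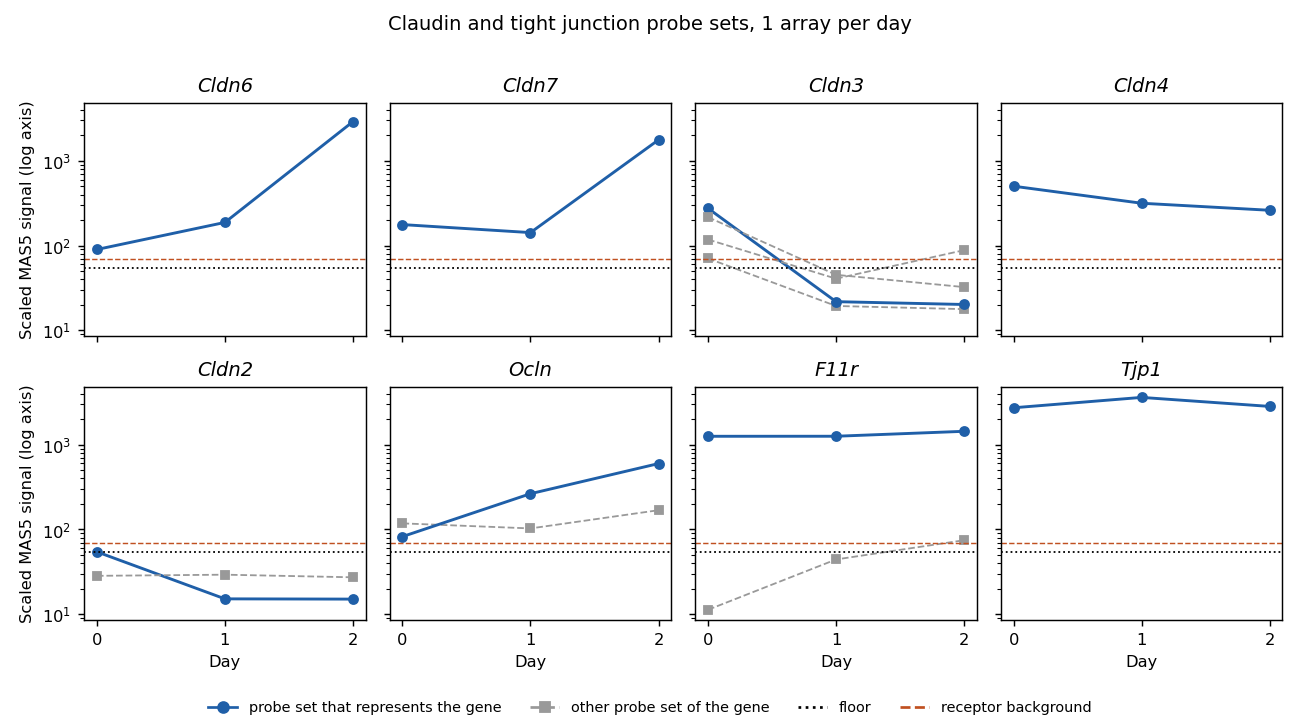
Scaled MAS5 signal on a log axis for all 14 probe sets of the 8 genes on day 0, day 1 and day 2, with 1 array per day and no error bars. Blue circles are the probe set that represents the gene, grey squares its other probe sets, the dotted line the floor of 54.0 and the dashed line the receptor background of 70.2. Cldn6 and Cldn7 are far brighter on day 2 than on the earlier days, and the Cldn3 probe sets drop on day 1.

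Cldn6, a claudin of embryonic epithelia, had the widest difference. Its single probe set read 89.9 on day 0, 188 on day 1 and 2894 on day 2. The signal thus lay close to background on day 0, a little above it on day 1, and far above it on day 2. Day 2 was 32.2-fold higher than day 0 (log2 ratio 5.01, with a probe set SD of 0.39) and 15.4-fold higher than day 1 (log2 ratio 3.95). Of 13468 genes compared between day 1 and day 2, 7 had a higher ratio, so that Cldn6 ranked 8, and against day 0 it ranked 38 of 13865. The step from day 0 to day 1 was small at 2.09-fold (log2 ratio 1.06, SD 0.50). That step depended on the floor, with a log2 ratio of 0.36 when the floor was at the 60th percentile.

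Cldn7, an epithelial claudin that binds the adhesion protein Epcam, was also read by 1 probe set, at 177 on day 0, 142 on day 1 and 1764 on day 2. Days 0 and 1 did not differ beyond the probe set error (log2 ratio -0.31, SD 0.50). All of its difference therefore lay between day 1 and day 2, where it was 12.4-fold higher (log2 ratio 3.63, SD 0.39), and it ranked 12 of 13468 genes. Against day 0 the difference on day 2 was 9.98-fold. The log2 ratio of day 2 against day 0 stayed between 3.11 and 3.32 under 8 other ways of processing. Other floors, means over probe sets and probe sets without suffixes could not move it. Its single probe set carries no suffix and read above each floor on both days.

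Cldn3, a barrier claudin found in many epithelia, showed the opposite course. Its representative probe set read 275 on day 0, 21.8 on day 1 and 20.2 on day 2. This probe set was thus above background on day 0 only, and was at least 5.09-fold lower on day 1 and on day 2. A second probe set read 216, 45.2 and 32.4, at least 4.0-fold lower on both days. The third began at 70.5, next to background, and read 19.4 and 17.8 later, so it could show little. The fourth read 118, 40.7 and 88.3, at least 2.18-fold lower on day 1 but, again above background, 1.33-fold lower on day 2. The 4 probe sets thus shared the low reading on day 1 and differed on day 2. All 4 carry the array's suffixes for probe sets that bind several transcripts of a gene or may bind other sequences, so no probe set for Cldn3 without such a suffix was at hand. Other settings weakened the difference on day 2, a floor at the 25th percentile (log2 ratio -0.42) and a pseudocount of 32 (-0.32), where the fourth probe set represented the gene in place of the first. Raising the floor to the 60th percentile gave a log2 ratio of -0.91 on both days, so that neither passed 2-fold. With the 25th-percentile floor, day 2 was higher than day 1 by a log2 ratio of 1.12, again read from the fourth probe set. The level course between these days thus depended on which probe set represented the gene.

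Cldn4 is a close relative of Cldn3, and both proteins serve as receptors for a clostridial enterotoxin. It read 501, 316 and 261 on the 3 days, well above background on each array. Each later day was dimmer than the one before, but neighbouring days were less than 2-fold apart. Day 2 was 1.92-fold dimmer than day 0 (log2 ratio -0.94, SD 0.39), which misses the 2-fold threshold. With quantile normalization, the log2 ratio was -1.02 and passed it. On day 2, Cldn4 was thus read above background, while of the 4 probe sets of its neighbour Cldn3 only the fourth was, at 88.3.

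Cldn2 forms a pore for cations and water in leaky epithelia. One probe set read 54.5, 15.2 and 15.1 on the 3 days and the other 28.4, 29.3 and 27.3. All 6 readings were below the receptor background, so no difference between days could be read for this gene. The log2 ratio of -1.06 found with a lower floor, at the 25th percentile, rests on these background readings.

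Occludin, the first membrane protein found in tight junctions, was read by 2 probe sets that disagreed. The representative one read 82.4 on day 0, 264 on day 1 and 598 on day 2, so each day was brighter than the one before. It was 3.20-fold higher on day 1 (log2 ratio 1.68, SD 0.50) and 7.26-fold higher on day 2 (log2 ratio 2.86, SD 0.39). The other probe set read 118, 103 and 169, with day 2 1.43-fold above day 0 (log2 ratio 0.52, SD 0.50) and day 1 below it. As a mean over both, the log2 ratios were 0.74 and 1.69.

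F11r encodes a junctional adhesion molecule that recruits the polarity protein Par3 to early contacts. It read 1256, 1257 and 1438 on the 3 days. None of the 3 days differed from another beyond the probe set error (log2 ratio 0.20 for day 2 against day 0, SD 0.25). A second F11r probe set read 11.3, 44.3 and 74.7, at or near background throughout.

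Tjp1, the scaffold that links claudins to actin, read 2724 on day 0, 3609 on day 1 and 2826 on day 2. Day 1 was 1.33-fold brighter than day 0 (log2 ratio 0.41, SD 0.25), and day 2 was back within 1.04-fold of day 0. The scaffold and the adhesion molecule were thus read well above background on day 0 as well as on day 1 and day 2, in contrast to the courses of Cldn6 and Cldn7. That contrast is a description of 3 arrays and was not tested.

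**Figure D2:**
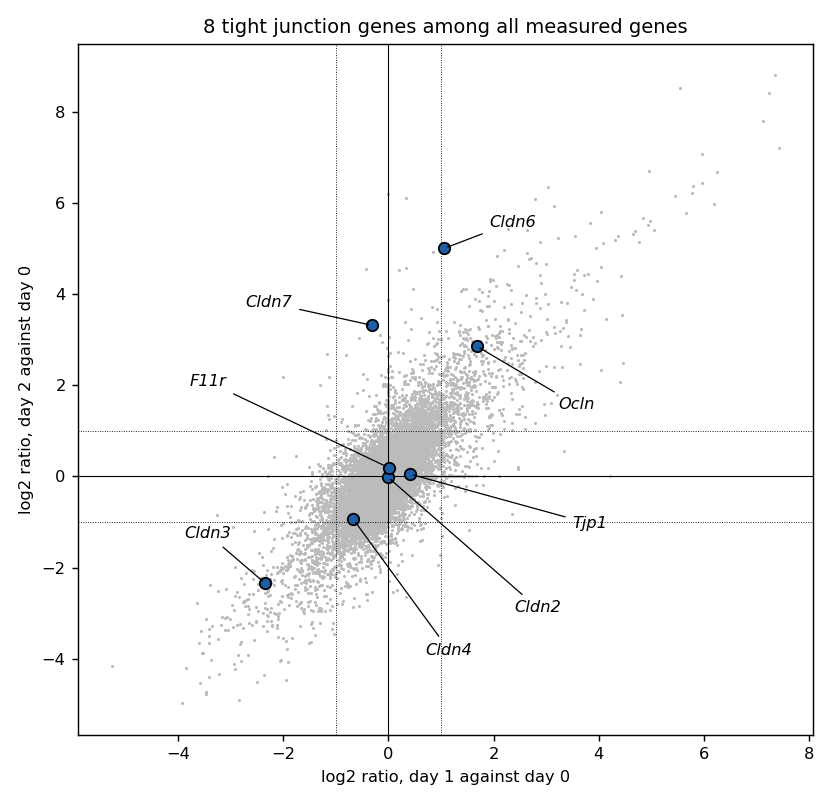
Log2 ratio of day 1 against day 0 (horizontal) and of day 2 against day 0 (vertical) for every gene above the floor on at least 1 of the arrays compared (grey), with the 8 tight junction genes in blue. Dotted lines mark 2-fold, and both axes share the day 0 array. Cldn7 lies at -0.31 and 3.32 and Cldn6 at 1.06 and 5.01, whereas Cldn4, F11r and Tjp1 lie between the dotted lines.

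For the 3 members with the widest range, the genes with the most similar pair of log2 ratios against day 0 were sought among 10908 genes above the floor on all arrays, by Euclidean distance. Each pattern has only 2 values, so likeness here is a weak description. Nearest to Cldn6 was the activin antagonist Fst (distance 0.22), which read 117, 211 and 3560, followed by the small heat shock protein Cryab (0.85) and the amyloid precursor App (0.95). Nearest to Cldn7 was Ap1m2 (distance 0.26), the epithelial subunit of an adaptor complex for basolateral sorting, at 295, 263 and 2551. Gpc6, a cell surface proteoglycan, and Plbd1 came next, at distances of 0.38 and 0.41. Nearest to Ocln was Snai1 (distance 0.06), followed by Rnf217 (0.15) and the matrix protein Sparc (0.16).

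The remainder of the pathway was read from 3 lists of 64 genes, of which 56 were on the array under an unambiguous probe set and 45 were above the floor on at least 1 day. On day 1, 8 of 43 comparable genes were higher (18.6%, against 6.00% of all genes) and 6 lower (14.0%, against 6.58%). On day 2 against day 0, 11 of 45 (24.4%, against 11.0% of all genes) were higher and 4 (8.89%, against 10.1%) lower. Between day 1 and day 2, 2 of 42 were higher (Marveld2 and Patj) and 2 lower (Cgnl1 and Jam2). That is 4.76% in each direction, near the 5.61% and 3.67% of all genes. The list's median log2 ratio against day 0 was 0.37 on day 1 and 0.34 on day 2. Amot, on the list as a partner of Patj, had by far the highest ratio.

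Of 16 other claudins on the array, 7 were above the floor on at least 1 day, and none of these differed 2-fold in any comparison. Cldn12, a claudin with an unusual cytoplasmic tail, was the only one of them far above background, at 1346, 1954 and 2335, and its second probe set read 557, 781 and 1002. Both probe sets were brighter on each later day, by less than 2-fold overall (log2 ratios of 0.80 and 0.85 on day 2). Cldn14 read 96.7, 35.3 and 71.5 and Cldn22 read 116, 110 and 60.1. Cldn9, the immediate neighbour of Cldn6 on chromosome 17, read 65.1, 4.0 and 23.9, all below background, so the brighter signal at Cldn6 had no counterpart above background at Cldn9. Cldn1 and Cldn5, markers of epidermal and endothelial barriers, were under the floor on each array.

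Among the other membrane proteins, 5 of 10 were higher on day 2 (11.0% of all genes) and 2 lower (10.1%). The difference was widest for Jam2, an adhesion molecule also called JAM-B, which read 5499 on day 0, 2183 on day 1 and 709 on day 2. It was 7.75-fold lower on day 2 (log2 ratio -2.95), and all 5 of its probe sets had log2 ratios between -2.95 and -2.30. Jam3, its binding partner JAM-C, read 179, 399 and 482, which is 2.69-fold higher on day 2. F11r, of the same family, had stayed level, so the 3 related molecules took 3 different courses.

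Proteins of tricellular contacts, the points where 3 epithelial cells meet, also differed between days. Marveld2 (tricellulin) read 37.7 on day 0, 139 on day 1 and 397 on day 2, at least 7.35-fold higher on day 2. Tricellulin is recruited by the angulins, which are encoded by Lsr, Ildr1 and Ildr2. Lsr read 279, 1014 and 1683 (6.03-fold higher on day 2), and its other probe set was under the receptor background on each day. Ildr2 read 38.7, 122 and 224, at least 4.14-fold higher on day 2, while a second, dim probe set had a log2 ratio of 0.37. Ildr1 had the reverse course at 596, 122 and 96.9, which is 6.15-fold lower. Thus 2 angulin genes were higher and 1 lower on day 2. Cxadr, the coxsackie and adenovirus receptor, was 2.25-fold higher, with log2 ratios from 0.94 to 2.32 over the 4 probe sets above the floor.

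Plaque and polarity genes, which encode the cytoplasmic side of the junction and the complexes that define its position, had 6 of 28 members higher (11.0% of all genes) and 2 lower (10.1%) on day 2. Patj, Pals1 (Mpp5 in the annotation) and Crb3 form the Crumbs complex. Patj read 108, 231 and 981, a 9.13-fold difference on day 2, and its 3 probe sets above the floor had log2 ratios between 2.17 and 3.19. Crb3 read 158, 257 and 508, 3.22-fold higher on day 2, and its 3 probe sets spanned log2 ratios of 1.20 to 2.07, whereas on day 1 they spanned -1.33 to 1.08. Mpp5, at 534, 733 and 786, stayed within 2-fold.

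Of the Par complex, which sets the apical domain, Pard6b read 645, 1010 and 1658 and was 2.57-fold higher on day 2. Pard3, Prkci and Prkcz were within 2-fold of day 0 on both days by their representative probe sets. A dimmer Prkcz probe set, however, read 39.3, 111 and 183, and a dimmer Pard3 probe set read 55.4, 149 and 99.7. Mpdz, a multi-PDZ relative of Patj that binds claudins, was 2.79-fold higher on day 2. Amot, which binds Patj and Mpdz, read 80.3, 5024 and 6984, but its 3 probe sets had log2 ratios from 1.34 to 6.44. Amotl2 was 2.45-fold higher and Amotl1 was within 2-fold.

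Cgnl1 (paracingulin), a cytoplasmic adaptor of the junction, was the one gene of this list over 2-fold brighter on day 1 than on both other days. It read 348 on day 0, 1286 on day 1 and 398 on day 2. All 4 of its probe sets above the floor were brighter on day 1 than on day 0 (log2 ratios 1.08 to 1.89) and dimmer on day 2 than on day 1 (-1.69 to -0.89). The related gene Cgn read 143, 184 and 154. The lower plaque genes on day 2 were the guanine nucleotide exchange factors Tiam1 (2.64-fold) and Arhgef18 (2.09-fold), whose probe sets spanned log2 ratios of -1.40 to -0.20 and of -1.91 to -0.54. Another exchange factor, Arhgef2, which is held inactive at junctions by cingulin, was 2.96-fold lower on day 1 and 1.56-fold lower on day 2.

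**Figure D3:**
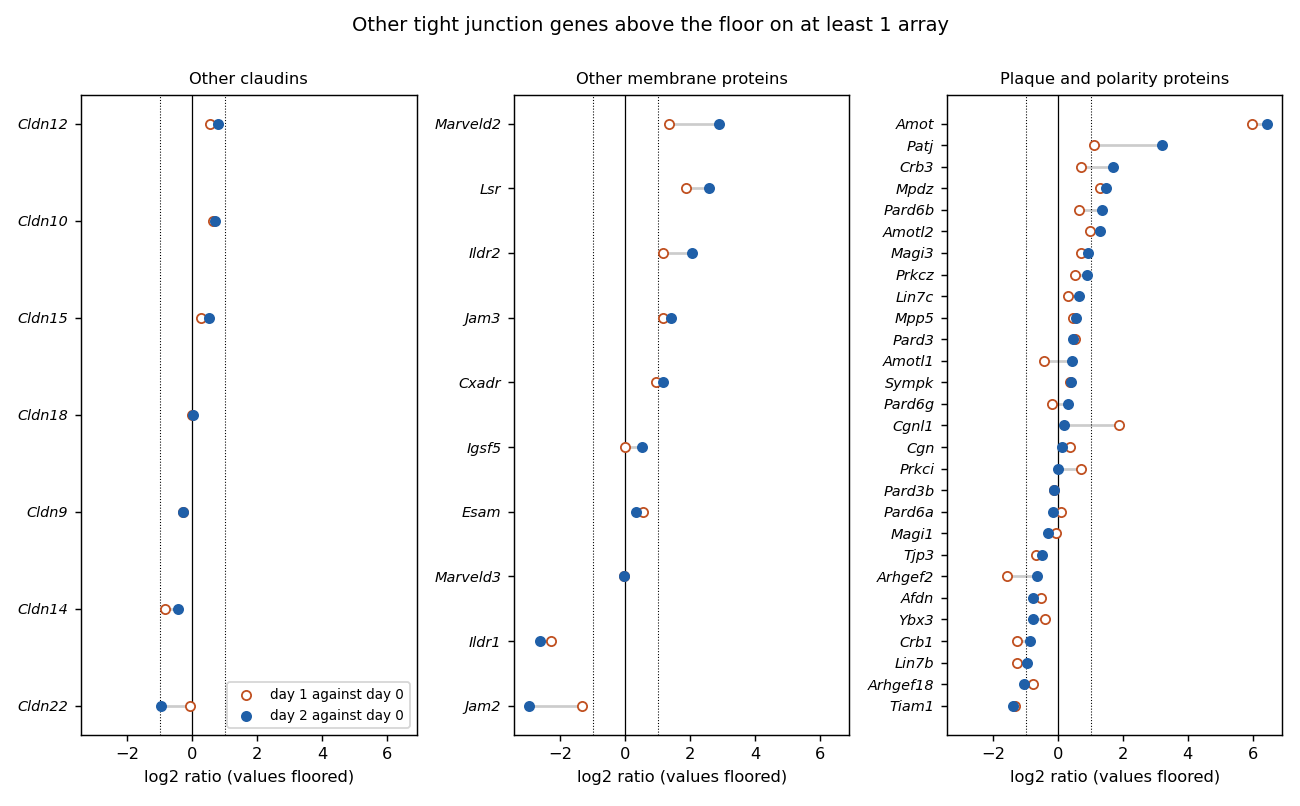
Log2 ratio of day 1 (open circles) and day 2 (filled circles) against day 0 for the 45 other tight junction genes above the floor on at least 1 array, in 3 lists, with dotted lines at 2-fold and no error bars because each day has 1 array. The other claudins lie between the dotted lines, while Jam2 and Ildr1 lie far to the left and Marveld2, Lsr, Amot and Patj to the right.

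Genes that regulate claudins, by transcription or through the protein, were read from a list of 19, of which 17 were on the array and above the floor. On day 2 against day 0, 6 were higher (35.3%, against 11.0% of all genes) and 2 lower (11.8%, near the 10.1% of all genes). On day 1, 5 were higher (29.4%, against 6.00%) and 4 lower (23.5%, against 6.58%). Snai1, a repressor that binds E-boxes of claudin and occludin genes, read 215, 673 and 1513 on the 3 days, a 7.02-fold difference by day 2. Its signal was thus higher on the same days as the representative probe set of Ocln. The other Ocln probe set had log2 ratios of -0.20 on day 1 and 0.52 on day 2. The distance given above comes from a search for the nearest genes, so it adds no support. Zeb1, another repressor of this kind, read 539, 273 and 115 (4.68-fold lower), but its other 2 probe sets above the floor had log2 ratios of -0.15 and -0.09. Zeb2 and Snai2 were within 2-fold in each comparison. Twist1 was at least 2.08-fold higher on day 2, at a signal of 113.

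Activators of epithelial genes also took different courses. Hnf4a, a nuclear receptor of visceral endoderm and liver, read 19.4, 181 and 425, at least 7.86-fold higher on day 2, with log2 ratios of 1.00 to 2.98 over 4 probe sets. Elf3, an epithelial ETS factor, read 683, 4715 and 2872, with its highest signal on day 1. Ovol1 was at least 2.58-fold higher on day 2 on a dim probe set, and a second one was at or near the floor. Grhl3, a grainyhead factor, read 555, 184 and 103, 5.38-fold lower on day 2. Grhl2, which activates claudin genes in other epithelia, was 2.23-fold lower on day 1 and 1.69-fold lower on day 2. Its other 2 probe sets above the floor had day 2 log2 ratios of 0.32 and -0.43.

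Epcam holds Cldn7 at the lateral membrane and is cleaved by the protease matriptase (St14), which Spint1 and Spint2 inhibit. Epcam read 2499, 1058 and 1504 on the 3 days, and St14 read 629, 283 and 605. Both were lowest on day 1, Epcam by 2.36-fold and St14 by 2.22-fold against day 0, and both were within 2-fold of day 0 on day 2. A second Epcam probe set had a log2 ratio of -0.47 on day 1. Spint2 read 2727, 1455 and 3260, also with its lowest signal on day 1. Prss8, a protease that acts with St14, read 73.8, 215 and 329, which is 4.46-fold higher on day 2. Cldn7 differed from these genes in being close to its day 0 signal on day 1 and far above it on day 2.

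**Figure D4:**
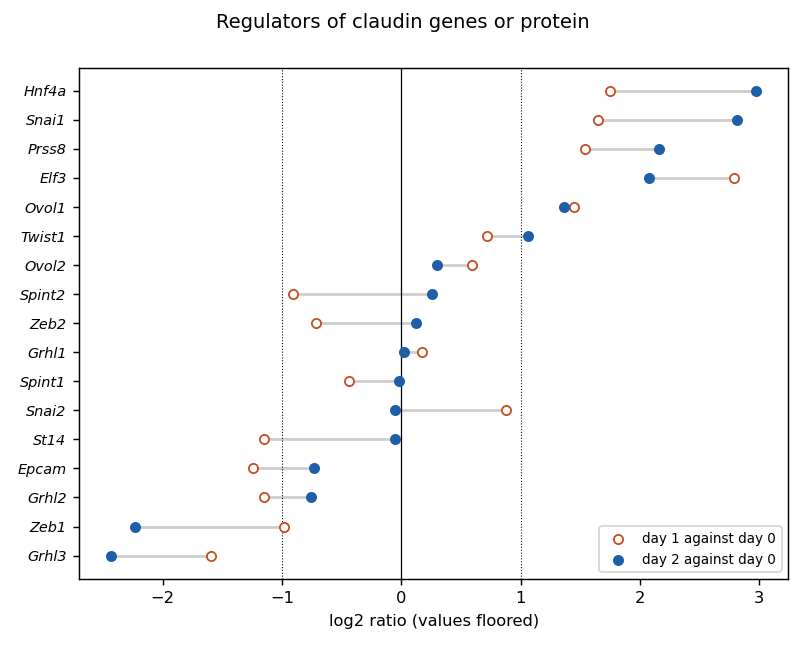
Log2 ratio of day 1 (open circles) and day 2 (filled circles) against day 0 for the 17 regulators of claudin genes or protein, with dotted lines at 2-fold and 1 array per day. Hnf4a and Snai1 lie farthest to the right on day 2, at 2.98 and 2.81, and Grhl3 and Zeb1 farthest to the left, at -2.43 and -2.23.

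Markers of the epithelia that could carry these claudins were set beside the results. Of 6 visceral endoderm markers, 4 were higher on day 2 (11.0% of all genes), while Afp was under the floor throughout. The 6 signals summed to 726, 7053 and 31748 on the 3 days. Here and for the lists below, a sum follows its brightest probe sets and does not measure the amount of a cell type. The summed signal of 6 parietal endoderm markers was 9816, 61182 and 117727. Trophectoderm, another early epithelium with claudins, had 4 of 7 comparable markers higher (57.1%, against 11.0% of all genes) and 1 lower (14.3%, against 10.1%) on day 2. The sum over its 8 markers was 2745, 4724 and 10561. The keratins Krt8 and Krt18 made up most of that sum and are expressed in endoderm too. Of the defining trophectoderm factors, Cdx2 and Gata3 were higher on day 2, with a log2 ratio of 1.16 each, and reached 121 and 162. Elf5 was under the floor on each array, Eomes stayed within 2-fold and Tfap2c was 2.76-fold lower on day 2.

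Fibroblast markers summed to 590, 287 and 249, with Col1a1, Col3a1 and Postn under the floor on each array. Thy1 was the only one at least 2-fold lower (log2 ratios -2.48 on day 1 and -2.96 on day 2), and Pdgfrb was brighter on day 1 (0.79). Among endothelial and blood markers, which bear on Jam2, Jam3 and Esam, Pecam1 read 1036, 431 and 200, Ptprc was under the floor and Cdh5 reached 89.7. Pecam1 was lower on both days, as was Jam2, but it was the only marker of this list that was lower. Kdr had log2 ratios of -0.20 on day 1 and -0.15 on day 2, and both Cdh5 probe sets were brighter on day 2 (0.45 and 0.73). The part of these cell types in the tight junction results was not tested. In bulk RNA of this kind, a change in how many cells express a gene and a change in RNA per cell cannot be told apart.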

How the data were processed

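Per the labels' protocols, RNA from each culture was isolated with Trizol, purified on columns and labelled with an Affymetrix one-cycle kit. The authors deposited 1 linear signal intensity per probe set, made with MAS5 per the submitters' processing notes; no version, scaling target or detection call is given in the sources used here. The 3 columns had trimmed means of 497.5, 497.6 and 497.7 (2% cut at each end), so a common scaling had been applied, which assumes equal total signal on each day. Values carried no log and no centring.

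Of 45101 probe sets, 64 controls were left out, and 932 assigned to several genes were not used. Symbols came from the platform annotation, updated by gene identifier through a RefSeq table of GRCm38.p6 (34741 of 34945 matched). Arrays were rescaled to 1 trimmed mean, floored at the 40th percentile and taken to log2. The 2-fold rule counts a gene whose brighter array is above the floor. With 1 array per day there was no test, and precision is limited by the number of arrays. For the error, log2 ratios of paired probe sets (same gene, above the floor on both arrays) were subtracted, and the SD of these differences was scaled to 1 probe set. Python 3.11.15 and limma 3.58.1 (cyclic loess) were used, and the calls were tested on simulated data.

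All members were named with every probe set. From each other list the 3 genes with the widest difference were named, and further list genes were chosen as examples after their values were seen. Members, lists and rules were chosen with earlier results of these data known. Alternatives were other floors, a pseudocount of 32, quantile normalization, cyclic loess, no rescaling, means over probe sets, probe sets without suffixes, and 3-fold and 1.5-fold thresholds. No column of the table went unused (0 columns).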

Additional observations from a re-analysis of the deposited data

How the results depend on the processing

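The 3 genes higher on day 2 against day 0 (Cldn6, Cldn7 and Ocln) and the direction of their log2 ratios held under every alternative run. For Ocln, each run used the representative probe set, alone or in the mean. None used the other probe set alone, whose day 2 log2 ratio of 0.52 is under 2-fold. Between day 1 and day 2, Ocln missed 2-fold with means over probe sets (log2 ratio 0.95), leaving 2 members higher, and Cldn3 was added with the floor at the 25th percentile (1.12), making 4. With the floor at the 25th percentile, 2 members (Cldn2 and Cldn3) were lower on day 1 (1618 of all 16083 genes). Between day 1 and day 2, 4 other tight junction genes were higher (1336 of 15978). On day 2 the 1 lower member was then Cldn2 (log2 ratio -1.06, from readings under the background) and not Cldn3 (-0.42). With the floor at the 60th percentile, 0 members were higher and 0 lower on day 1 (539 and 517 of all 9973 genes). On day 2, 0 were lower (943 of 10202), and on day 1, 4 other tight junction genes were higher (539 of 9973). With a pseudocount, 1 member (Ocln) was higher on day 1 (1011 of all 18193 genes) and 0 lower on day 2 (1572 of 18193). Quantile normalization added Cldn4 to the lower members on day 2, making 2 (1485 of all 13746 genes). With means over probe sets, 1 member (Cldn6) was higher on day 1 (628 of all 13643 genes). The other tight junction genes had 3 higher and 3 lower on day 1 (628 and 653 of 13643) and 2 lower on day 2 (1098 of 13888). Without suffixed probe sets, 0 members were lower on day 1 (765 of all 11969 genes) or day 2 (1231 of 12234). Cldn3 and Tjp1 have no probe set left there. At a 3-fold threshold, 1 member was higher on day 1 (2.54% of all genes). Of the other tight junction genes, 3 of 43 were higher (2.54%) and 1 lower (2.12%) on day 1. On day 2, 6 of 45 were higher (5.19%) and 2 lower (3.89%). Between days 1 and 2, 1 of 42 was higher (1.69%). At 1.5-fold, 2 members were lower on day 1 (15.9% of all genes) and 2 on day 2 (21.9%). Of the others, 15 of 43 were higher on day 1 (13.3%) and 10 of 45 lower on day 2 (21.9%). Between days 1 and 2, 8 of 42 were higher (15.0%) and 4 lower (12.1%). Of the members' log2 ratios under alternatives, 166 stayed within the probe set SD of the reported value and 20 moved further, 10 of them for Cldn3, and none that passed 2-fold changed sign. Some of the 166 could not have moved, for example means over probe sets where a gene has a single probe set. Signals near background limit Cldn2, Cldn3 and the day 0 readings of Cldn6 and Ocln. No paired analysis was possible because each day has 1 array.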

Other observations

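Genes of the apical membrane and its recycling vesicles, which lie just above the tight junction, were read from a list of 21, added after the values of the members had been seen. Of 17 that could be compared on day 2 against day 0, 6 were higher (35.3%, against 11.0% of all genes) and 0 lower (10.1% of all genes). Podxl, a sialomucin of the apical surface, read 717 on day 0, 3522 on day 1 and 6770 on day 2, a 9.44-fold difference. Stx3, the fusion protein of apical delivery, read 920, 1574 and 8308, so most of its 9.03-fold difference lay between day 1 and day 2, and its 4 probe sets had log2 ratios from 1.90 to 3.34. Eps8, an actin capper of microvilli, was 8.90-fold, the vesicle protein Vamp8 7.71-fold and the recycling GTPase Rab11a 4.15-fold higher, while the recycling motor Myo5b was 5.91-fold higher on day 1 and 4.47-fold on day 2, with log2 ratios of 0.49 and 2.16 on day 2 over its 2 probe sets above the floor. Ezr and Rdx, which link apical membrane to actin, were within 2-fold, and the related Msn was 2.16-fold lower on day 1 and 1.99-fold on day 2 (on day 1, 6.58% of all genes were lower). In all, 11 of the 17 were within 2-fold on day 2, among them Rab25, Prom1 and Pdzk1. Vil1, Cdhr2 and Espn, also on the list, were under the floor on each array.

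Connexins form gap junctions, which couple cells beside their tight junctions. Of 14 listed, 6 were above the floor on at least 1 day, with 2 higher (6.00% of all genes) and 1 lower (6.58%) on day 1, and 0 higher (11.0%) and 1 lower (10.1%) on day 2. With so few genes, these counts say little. Gjc1 (connexin 45) read 1982, 462 and 286, which is 6.93-fold lower on day 2. Gja1 (connexin 43) read 8305, 14061 and 14420 on its representative probe set, within 2-fold, but its 6 probe sets had day 2 log2 ratios from 0.80 to 1.97. Gjb5 read 1180, 2443 and 867, and Gja4 read 131, 268 and 135, so both had their highest signal on day 1.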
